A study of Mus musculus with 8 samples.

Results

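The anaphase-promoting complex is the ubiquitin ligase that ends mitosis. The 9 genes described here encode its activators Cdc20 and Fzr1, its conjugating enzymes Ube2c and Ube2s, its RING subunit Anapc11, its inhibitor Fbxo5, its substrates Pttg1 and Cdca3, and Espl1, the protease that Pttg1 holds in check. They were found by symbol: 18 of 45101 probe sets on the array carried exactly 1 of these 9 names, out of 18193 named genes. RNA was from mouse NS5 cells, labelled as brain neural stem cells of age E11.5, and was hybridised to 8 Affymetrix arrays. All cells were first plated with FGF2 and EGF for 24 h and held without growth factors for 4 h. For the next 48 h they received FGF2 with ethanol at 400 mg/dl (Ethanol and FGF2), FGF2 alone (FGF2), TGF-beta1 with the same ethanol (Ethanol and TGF-beta1) or TGF-beta1 alone (TGF-beta1), with 2 arrays in each group. The series' design text gives both growth factors at 10 ng per ul, a unit that the array values cannot check. Whether the 2 replicates were separate cultures is not stated, so p-values measure only the spread between these samples, which may be technical.

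In a cycling cell the complex is switched on by Cdc20 at the start of anaphase and by Fzr1 (Cdh1) from late mitosis until the next S phase. Ube2c places the first ubiquitins on a substrate and Ube2s lengthens the chain, and Anapc11 is the subunit that brings the charged enzyme to the substrate. Destruction of Pttg1 (securin) frees Espl1 (separase), which cuts the cohesin ring and lets sister chromatids part. Fbxo5 (Emi1) blocks the complex while DNA is replicated, and Cdca3 (Tome-1) promotes entry into mitosis by having the kinase Wee1 destroyed. In the nervous system Fzr1 also acts in neurons that have left the cell cycle, where it restrains axon growth.

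Many genes of late cell cycle carry a short promoter element, the letters TTTGAA, near a CCAAT box, and complexes of the MuvB family bind that element. The windows below run from 250 bases before to 50 bases after a transcript start (RefSeq's promoter table, build GRCm38.p6) and are shown because the genes with the largest differences on the arrays can be set beside one with a small difference. All 9 genes had a window, Anapc11 had 2, and each of the others had 1. For 6 of 9 genes a window's start was the end of the gene span given further on. It lay 39 bases inside that span for Espl1, 646 for Cdca3 and 1482 for Pttg1, so for these genes the window is not around the outermost annotated start. TTTGAA was searched on both strands, where it reads TTCAAA on the opposite one. The variant TTCGAA reads the same on both. CCAAT was searched on both strands too and reads ATTGG on the opposite one. In Ube2c, upstream of the stretch shown, a match of the CCAAT box on each strand shares letters with the other. Capitals mark every match. The full windows of Cdc20 and Fzr1 come first, followed by the stretch around TTTGAA in 4 other genes.
Cdc20, chr4:118437294-118437593, minus strand: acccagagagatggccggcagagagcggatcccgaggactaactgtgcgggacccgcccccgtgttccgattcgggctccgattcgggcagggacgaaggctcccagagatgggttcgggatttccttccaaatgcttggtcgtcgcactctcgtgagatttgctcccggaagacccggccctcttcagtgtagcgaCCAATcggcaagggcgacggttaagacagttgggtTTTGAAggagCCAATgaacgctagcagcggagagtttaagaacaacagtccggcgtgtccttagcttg
Fzr1, chr10:81378321-81378620, minus strand: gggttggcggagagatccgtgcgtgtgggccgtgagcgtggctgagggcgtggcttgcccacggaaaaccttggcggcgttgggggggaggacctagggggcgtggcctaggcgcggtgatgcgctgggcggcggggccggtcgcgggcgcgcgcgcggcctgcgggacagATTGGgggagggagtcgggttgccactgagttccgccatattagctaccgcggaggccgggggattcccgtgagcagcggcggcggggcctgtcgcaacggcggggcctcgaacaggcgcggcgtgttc
Ube2c, chr2:164769820-164769925, plus strand: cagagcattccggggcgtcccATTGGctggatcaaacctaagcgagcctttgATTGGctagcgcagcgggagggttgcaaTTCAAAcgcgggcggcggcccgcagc
Cdca3, chr6:124830126-124830225, plus strand: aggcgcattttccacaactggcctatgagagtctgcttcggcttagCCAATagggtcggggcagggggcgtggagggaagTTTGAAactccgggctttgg
Fbxo5, chr10:5805437-5805542, minus strand: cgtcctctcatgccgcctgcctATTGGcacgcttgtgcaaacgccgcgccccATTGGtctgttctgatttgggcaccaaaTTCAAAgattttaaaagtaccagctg
Espl1, chr15:102296186-102296291, plus strand: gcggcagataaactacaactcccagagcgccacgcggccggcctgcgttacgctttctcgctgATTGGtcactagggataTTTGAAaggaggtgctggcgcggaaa

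Both TTTGAA and CCAAT were present in the windows of 5 of 9 genes: Cdc20, Ube2c, Cdca3, Fbxo5 and Espl1. Over all 32851 windows of the RefSeq table, 17.9% held TTTGAA, 37.4% held CCAAT and 6.95% held both. Counted from each window's own start, TTTGAA began 18 bases before that of Cdc20, 29 before that of Ube2c and 27 before that of Espl1. It began 3 bases after the window's start in Fbxo5 and 30 after it in Cdca3. The windows of Fzr1 and Anapc11 held CCAAT without TTTGAA. That of Ube2s held TTCGAA, present in 1.56% of all windows, at 162 bases before its start. The window of Pttg1, which lies inside its gene span, held none of the 3 motifs. A match in these letters is a description of the window and shows neither binding nor a cause of the differences below.

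Each array gave a signal per probe set, the 2% trimmed mean was 500 on every array, and the median signal ran from 50.6 to 86.5. The growth factor labels of 2 arrays went against their signals. Pmepa1, a target of TGF-beta signalling, had signals of 8198 and 1057 in Ethanol and FGF2 against 935 and 548 in FGF2, followed under TGF-beta1 by 1081 and 7454 with ethanol against 8093 and 7315 without it (replicates 1 and 2, an order kept in all pairs of values). By this gene the first replicate of each ethanol group resembled the arrays of the other growth factor. All labels were kept, and results are given with and without these arrays. Of the neural stem and radial glia markers, 12 of 13 passed the signal filter, Nes and Sox2 among them, where 10916 of 18193 genes did. So did 6 of 6 astrocyte, 7 of 10 neuronal and 2 of 6 oligodendrocyte markers, against 0 of 6 endothelial and 1 of 7 microglia and macrophage markers. Summed signals of 10 neuronal markers were 9386 to 14150 on ethanol arrays and 5724 to 11960 on arrays without ethanol, with Rbfox3, Stmn2 and Gap43 not past the filter. Those of 6 astrocyte markers were 34100 to 42050 with ethanol and 20470 to 34410 without, and those of the stem cell list 88710 to 115500 with ethanol and 69310 to 125300 without. The part of these shifts in the results below was not tested.

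Transcripts of Cdc20, Ube2c, Pttg1, Cdca3 and Fbxo5 fell with ethanol in the average over both growth factors, the first 4 by 9.81-fold to 13.1-fold and Fbxo5 by 3.03-fold. The RING subunit Anapc11, the activator Fzr1, the chain-lengthening enzyme Ube2s and the separase gene Espl1 lay below 0 as well, as did 46.0% of all genes tested, but did not pass the test. That made 5 of 9 genes falling at an adjusted p under 0.05 (limma, on log2 of the signal plus a constant of 23.66, Benjamini-Hochberg over 10916 genes), where 1.80% of all genes tested fell. At an unadjusted p under 0.05 were 9 of 9 genes and 10.8% of all genes. The median of the 9 log2 fold changes was −1.70, against 0.03 over all genes tested. Because the constant damps low signals, a fold is smaller on this scale than in the signals themselves. In RNA from whole cultures, fewer dividing cells and less RNA per dividing cell cannot be told apart. These genes were singled out with earlier results of the same arrays known, in which Pttg1 and Cdca3 already stood out.

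**Figure D1:**
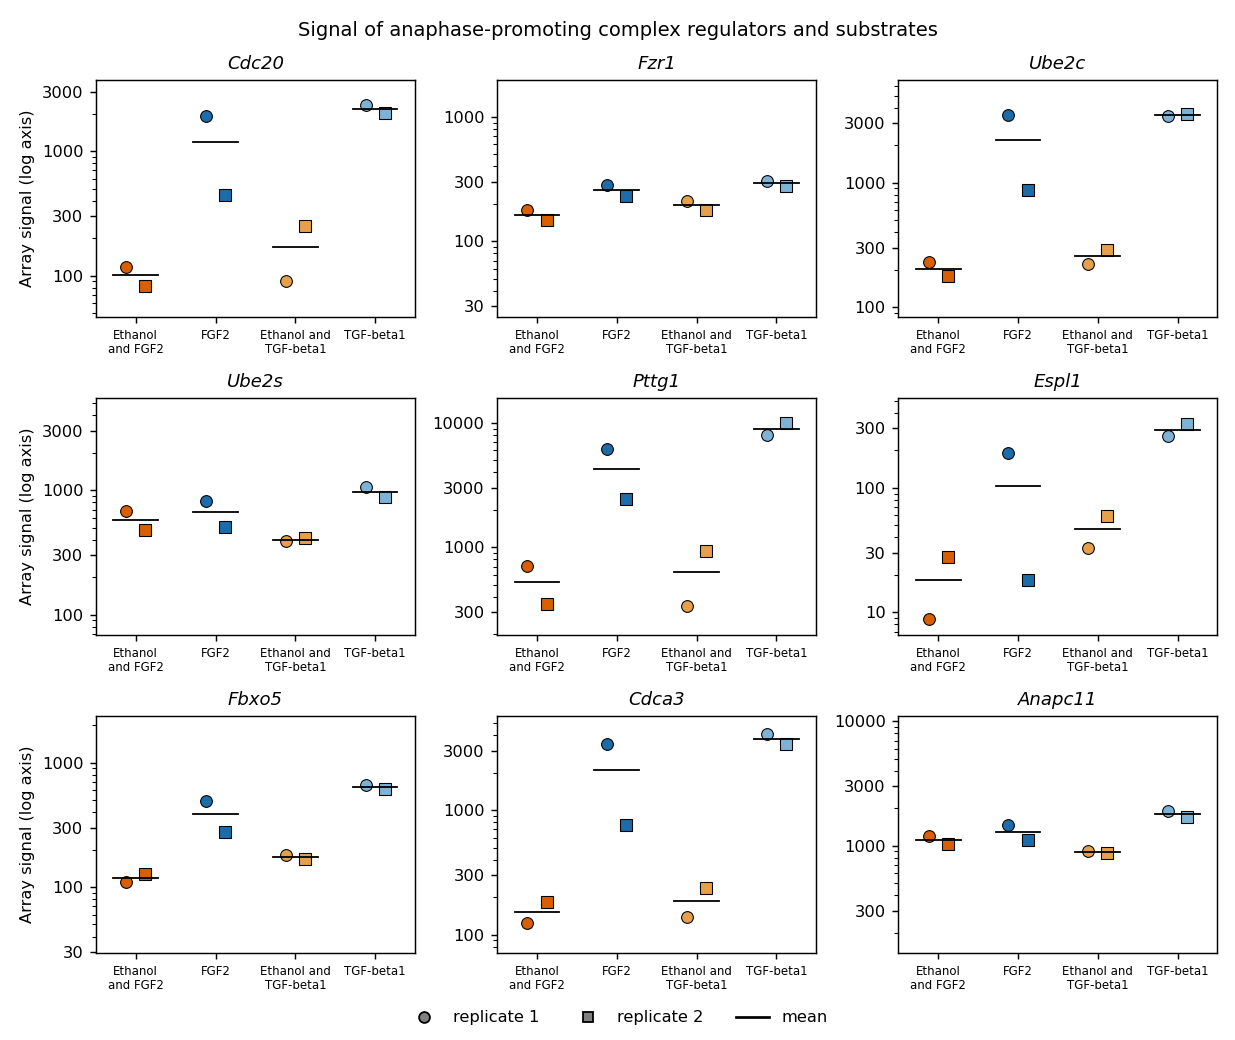
Array signal (log axis, the same span in each panel) of the 9 genes in the 4 groups, with circles for replicate 1, squares for replicate 2 and a bar at the mean. For Cdc20, Ube2c, Pttg1, Fbxo5, Cdca3 and Fzr1 all 4 ethanol arrays lay below all 4 arrays without ethanol, and the FGF2 replicate 2 array lay below FGF2 replicate 1 in each panel.

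Among the activators, Cdc20 (chromosome 4, 118432901 to 118437343, GRCm38.p6) carried the larger difference. Its signal was 118 and 83.0 in Ethanol and FGF2 against 1918 and 441 in FGF2, and 91.0 and 251 in Ethanol and TGF-beta1 compared with 2361 and 2018 in TGF-beta1. All ethanol arrays were low, the groups did not overlap, and FGF2 replicate 2 stood between the ethanol arrays and the other arrays without ethanol. The log2 fold change in the average was −3.29 ± 0.45 (moderated SE, limma adjusted p = 0.00577). The other probe sets of Cdc20 gave −3.42 (limma adjusted p = 0.0176 over all probe sets) and −3.08 (adjusted p = 0.0656).

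Fzr1 (chromosome 10, 81366879 to 81378370), measured by 1 probe set, had signals of 179 and 149 in Ethanol and FGF2 against 286 and 230 in FGF2. They were 211 and 180 in Ethanol and TGF-beta1 compared with 304 and 279 in TGF-beta1. All 4 ethanol arrays lay below all 4 without ethanol here too, yet the gap was narrow: the log2 fold change was −0.56 ± 0.21 with a 95% interval from −1.04 to −0.08, not past the test (limma adjusted p = 0.367). Such a lack of overlap in the downward direction was seen for 6 of the 9 genes and for 4.45% of all genes tested.

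The conjugating enzymes differed in the same manner. Ube2c (chromosome 2, 164769929 to 164772902) had signals of 229 and 177 in Ethanol and FGF2 against 3534 and 867 in FGF2, and 224 and 287 in Ethanol and TGF-beta1 compared with 3434 and 3538 in TGF-beta1. The log2 fold change was −3.32 ± 0.38 (limma adjusted p = 0.00266), and its 4 ethanol arrays were close to each other under both growth factors. Ube2s (chromosome 7, 4808014 to 4812340) had 687 and 476 in Ethanol and FGF2 against 822 and 507 in FGF2, and 392 and 410 in Ethanol and TGF-beta1 compared with 1055 and 888 in TGF-beta1. The TGF-beta1 groups did not overlap. The FGF2 groups did, as Ethanol and FGF2 replicate 1 lay above FGF2 replicate 2. With either of these arrays left out they did not overlap. The growth factor label of the former went against its Pmepa1 signal, and the latter was the lower of the FGF2 arrays. In the average Ube2s had −0.70 ± 0.22, a 95% interval from −1.19 to −0.21 and an adjusted p of 0.229 by limma. Its second probe set never exceeded a signal of 72.7 and did not pass the signal filter.

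Securin and separase are partners in 1 step of mitosis. Pttg1 (chromosome 11, 43420244 to 43427463) had signals of 711 and 351 in Ethanol and FGF2 against 6153 and 2432 in FGF2, and 339 and 939 in Ethanol and TGF-beta1 compared with 7979 and 9963 in TGF-beta1. Every ethanol array lay under every array without ethanol, and the log2 fold change was −3.41 ± 0.39 (limma adjusted p = 0.00269). The other probe sets of Pttg1 gave −3.32 (limma adjusted p = 0.00644) and −1.54 (adjusted p = 0.0542). Espl1 (chromosome 15, 102296254 to 102324357) had signals of 8.83 and 27.8 in Ethanol and FGF2 against 189 and 18.3 in FGF2, and 32.9 and 59.9 in Ethanol and TGF-beta1 compared with 262 and 324 in TGF-beta1. Of the arrays without ethanol, FGF2 replicate 2 stood among the ethanol arrays for Espl1 and the other 3 stood above them. Its log2 fold change was −1.70 ± 0.50 (limma adjusted p = 0.183). With each of the 8 arrays left out in turn it passed only without FGF2 replicate 2 (−2.29, adjusted p = 0.011), the array without ethanol on which it was low, and Espl1 is not counted as having fallen. Without FGF2 replicate 1 it had −1.12. Espl1 passed the signal filter through the arrays where it was high, and its signal was smaller than the added constant on 1 ethanol array and on 1 array without ethanol.

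The inhibitor Fbxo5 (chromosome 10, 5799158 to 5805465) had signals of 111 and 127 in Ethanol and FGF2 against 487 and 279 in FGF2, and 182 and 167 in Ethanol and TGF-beta1 compared with 655 and 613 in TGF-beta1. The groups did not overlap, and the replicates within each ethanol group were close. Its log2 fold change was −1.60 ± 0.23 (limma adjusted p = 0.00762), but −1.58 at an adjusted p of 0.0608 without the array TGF-beta1 replicate 1. The substrate Cdca3 (chromosome 6, 124829530 to 124833701) had 124 and 181 in Ethanol and FGF2 against 3406 and 762 in FGF2, and 138 and 237 in Ethanol and TGF-beta1 compared with 4050 and 3406 in TGF-beta1. Its log2 fold change was −3.71 ± 0.41 (limma adjusted p = 0.00266), on its 1 probe set that passed the signal filter. The others had signals of at most 36.1, and with the mean of all its probe sets Cdca3 had −1.35 (adjusted p = 0.0443).

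Anapc11 (chromosome 11, 120598421 to 120608198), the catalytic RING subunit, had signals of 1192 and 1035 in Ethanol and FGF2 against 1464 and 1106 in FGF2, and 907 and 875 in Ethanol and TGF-beta1 compared with 1904 and 1715 in TGF-beta1. As with Ube2s, the TGF-beta1 groups did not overlap, while Ethanol and FGF2 replicate 1 lay above FGF2 replicate 2. With either of these arrays left out the FGF2 groups did not overlap. The average was −0.60 ± 0.16 with a 95% interval from −0.97 to −0.23 and did not pass (limma adjusted p = 0.153). Another of its probe sets, with signals from 42.6 to 115, gave 0.19 (adjusted p = 0.91) and was the only 1 of the 18 probe sets with a higher mean under ethanol. With the mean of its probe sets Anapc11 had −0.20.

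**Figure D2:**
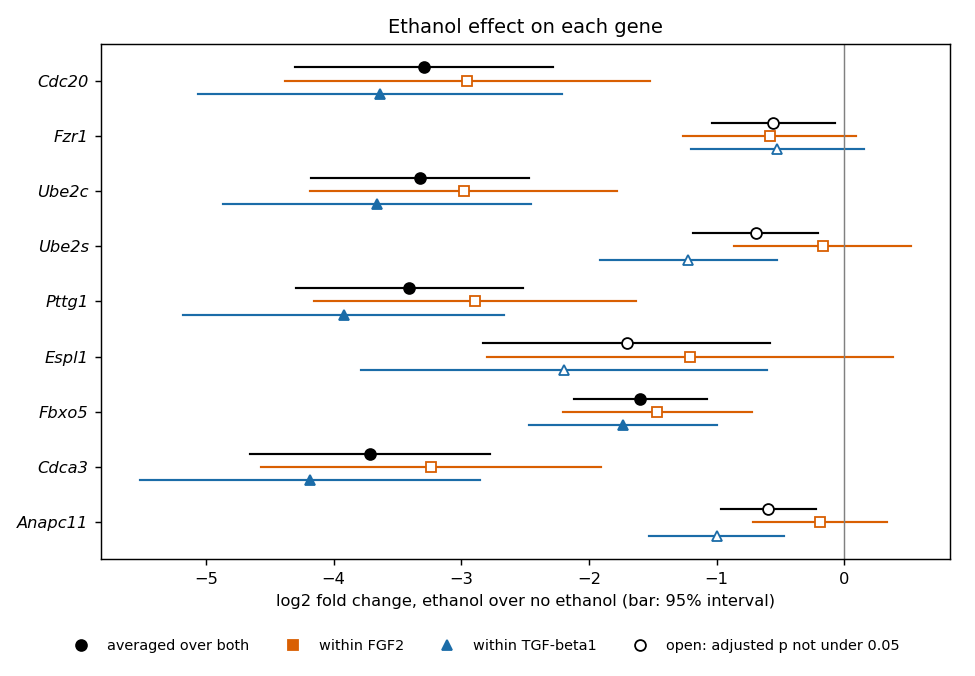
Log2 fold change of ethanol over no ethanol for each gene, averaged over both growth factors and within each, with 95% intervals and filled symbols for an adjusted p under 0.05. Cdc20, Ube2c, Pttg1 and Cdca3 lie between −3.29 and −3.71 in the average, Fbxo5 and Espl1 near −1.6 to −1.7, and Fzr1, Ube2s and Anapc11 between −0.56 and −0.70.

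The contrast between partner genes was compared within each array as the difference of their log2 values, since a ratio within an array shows unequal change but not which gene was stable. Cdc20 minus Fzr1 averaged −0.45 ± 0.63 on ethanol arrays and 2.28 ± 0.95 on arrays without ethanol (SD, n = 4 each), a difference of −2.74 by an exact permutation test at p = 0.0286, two-sided, the smallest that 4 against 4 arrays can give. Ube2c minus Ube2s averaged −1.01 ± 0.47 with ethanol and 1.62 ± 0.60 without, a difference of −2.63 at the same exact p of 0.0286. In both pairs every ethanol array lay below every array without ethanol. Pttg1 minus Espl1 averaged 3.39 ± 0.82 with ethanol and 5.10 ± 0.52 without. Here too every ethanol array lay below, at most 4.50 against at least 4.81, and the exact permutation test again gave p = 0.0286. Because Espl1 was near or under the added constant on ethanol arrays, this difference of −1.70 is set in part by the constant (−1.20 with a constant of 1). The test of this pair is therefore not drawn on. Over the 3 comparisons computed, the Benjamini-Hochberg value is 0.0286 each, which does not correct for how the pairs were chosen. They were chosen with the values of their genes known, so these p-values are no independent support for unequal change. For Cdc20 and Fzr1 the exact p was 0.0571 without any 1 of the 4 ethanol arrays, with differences from −2.55 to −3.03. Without both ethanol arrays labelled replicate 1 each of the 3 pairs had an exact p of 0.0667, the smallest that 2 against 4 arrays can give.

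**Figure D3:**
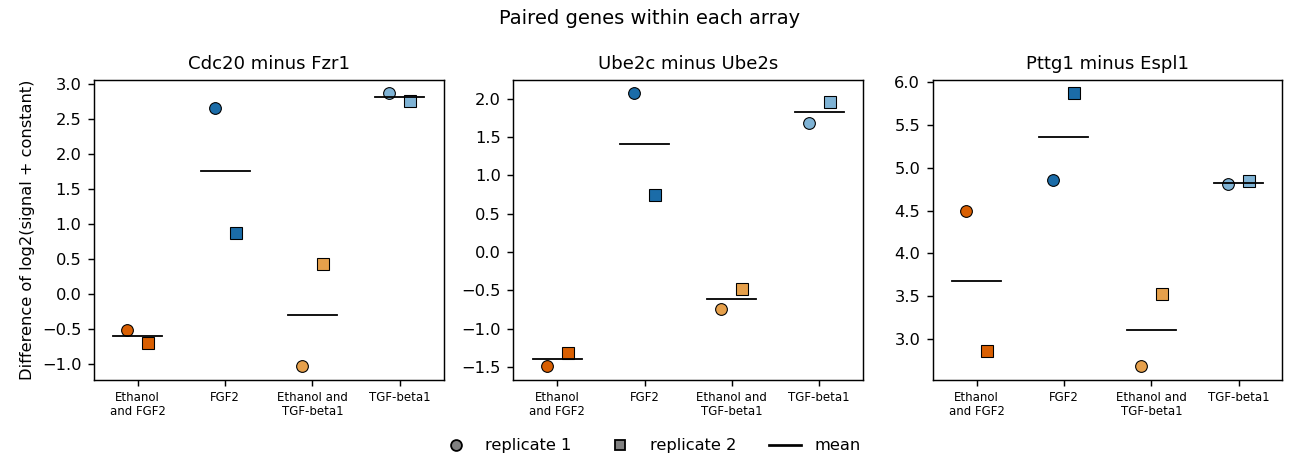
Difference of log2(signal + 23.66) between partner genes on each array, with circles for replicate 1, squares for replicate 2 and bars at group means. In each panel all 4 ethanol arrays lie below all 4 arrays without ethanol, and the panel of Pttg1 minus Espl1 depends on the added constant.

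Without the 2 ethanol arrays labelled replicate 1, limma called 0 of 9 genes in the average and 0.00% of all genes (2 residual degrees of freedom), with 8 of 9 at an unadjusted p under 0.05 where 10.4% of all genes were. The sizes stayed near those above: −3.08 ± 0.54 for Cdc20 (adjusted p = 0.101), −3.32 ± 0.52 for Ube2c (0.0806), −3.30 ± 0.37 for Pttg1 (0.0608), −3.42 ± 0.55 for Cdca3 (0.0858) and −1.58 ± 0.30 for Fbxo5 (0.12). The 5 genes that fell all did so without either one of these arrays alone.

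Within TGF-beta1 the same 5 genes fell, where 1.12% of all genes did, and 8 of 9 genes and 9.48% of all genes were at an unadjusted p under 0.05. Their log2 fold changes were −4.19 ± 0.59 for Cdca3 (limma adjusted p = 0.0205), −3.92 ± 0.56 for Pttg1 (0.021), −3.66 ± 0.53 for Ube2c (0.0218), −3.64 ± 0.63 for Cdc20 (0.0342) and −1.73 ± 0.33 for Fbxo5 (0.0481). Anapc11 and Ube2s had −1.001 ± 0.23 and −1.22 ± 0.31, not past the test (adjusted p = 0.104 and 0.141), and Fzr1 had −0.53 ± 0.30. The count was 0 when either TGF-beta1 array or the first replicate of Ethanol and TGF-beta1 was left out, and 3 without any 1 of the other 3 ethanol arrays. It was 5 without either FGF2 array.

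Within FGF2 all 9 genes lay below 0, but limma called 0 of them and 0.00% of all genes. At an unadjusted p under 0.05 were 5 of 9 genes, the same 5, and 8.30% of all genes tested. Cdca3 had −3.24 ± 0.59 (adjusted p = 0.0767), Ube2c −2.98 ± 0.53 (0.0744) and Cdc20 −2.95 ± 0.63 (0.132), while Ube2s and Anapc11 had −0.17 ± 0.31 and −0.19 ± 0.23, with 95% intervals from −0.86 to 0.52 and from −0.72 to 0.33. The array FGF2 replicate 2 decided these calls. On it the Cdc20 signal was 23.0%, that of Ube2c 24.5%, of Cdca3 22.4% and of Espl1 9.69% of the signal on FGF2 replicate 1, with Pttg1 at 39.5%, Fbxo5 at 57.4%, Ube2s at 61.7%, Anapc11 at 75.6% and Fzr1 at 80.6%. Without it Cdc20 (−3.98, adjusted p = 0.0223), Ube2c (−3.98, 0.00792) and Cdca3 (−4.30, 0.00842) passed, 3 of 9 genes beside 0.705% of all genes. The Gapdh ratio of 3′ to 5′ signal, which is higher in degraded RNA, was 3.33 and 3.48 in Ethanol and FGF2 against 1.64 and 2.20 in FGF2, and 1.93 and 2.06 in Ethanol and TGF-beta1 compared with 1.70 and 2.20 in TGF-beta1. The same ratio for Actb was 3.57 and 4.20 in Ethanol and FGF2 against 2.35 and 3.61 in FGF2. By Actb, FGF2 replicate 2 thus lay between the 2 arrays of Ethanol and FGF2. Under TGF-beta1 the Actb ratio was 2.78 and 3.07 with ethanol compared with 2.36 and 3.03 without it. The part of either ratio in the FGF2 differences was not tested.

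The ethanol effects within the growth factors were compared directly (TGF-beta1 minus FGF2). By limma 0 of 9 genes and 0.00% of all genes passed, with 2 of 9 genes and 4.43% of all genes at an unadjusted p under 0.05. The genes were Ube2s, at −1.05 ± 0.43, and Anapc11, at −0.81 ± 0.33 (adjusted p = 0.831 each). Without both ethanol arrays labelled replicate 1 0 of 9 genes were at an unadjusted p under 0.05, and 1.94% of all genes were. For Cdc20 the 95% interval of the difference ran from −2.70 to 1.33, so that effects several-fold apart could not be detected at this number of arrays.

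TGF-beta1 against FGF2 without ethanol gave log2 fold changes above 0 for all 9 genes, from 0.17 for Fzr1 to 1.74 ± 0.70 for Espl1, where 52.5% of all genes lay above 0. None passed the test (limma, 0 of 9 and 0.00% of all genes, adjusted p of at least 0.98), and 2 of 9, Espl1 and Fbxo5, were at an unadjusted p under 0.05 beside 4.97% of all genes. These sizes rested on the array FGF2 replicate 2: without it the median over the 9 genes was 0.23 in place of 0.98, and Ube2c had −0.02.

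Cdc20, Ube2c, Pttg1 and Cdca3 had similar profiles over the 8 arrays. Pearson's r was between 0.969 and 0.993 for pairs among them, and 0.98 for Ube2s with Anapc11, while Ube2s with Espl1 had the lowest value, 0.733. Outside the set, the profiles nearest to Cdc20 were those of Hmmr (0.997), Spc25 (0.997), Rrm1 (0.996), Kif20a (0.995) and Racgap1 (0.994), of which Hmmr, Kif20a and Spc25 act on the spindle or kinetochore, Racgap1 in cytokinesis and Rrm1 in deoxynucleotide synthesis. Nearest to Fzr1 were Nsl1 (0.985), Sass6 (0.98), Dock11 (0.9752), Prr11 (0.9748) and Dna2 (0.974). Their log2 fold changes in the average, from −0.70 for Dock11 to −2.51 for Nsl1, were larger than that of Fzr1, since a correlation reads the shape of a profile and not its size. All these values share the same 8 arrays, the ethanol split and the low FGF2 replicate 2 array, and are descriptions.

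Around these genes stand the other parts of the machinery. None of the 13 other core subunits of the ligase passed the test in the ethanol average (limma, beside 1.99% of all genes in either direction), with a median of −0.13. The largest differences among them were those of Anapc15 (−0.60 ± 0.20, limma adjusted p = 0.284) and Anapc13 (−0.47 ± 0.22). Among regulators, 9 of 11 listed genes were tested and 3 fell: the spindle checkpoint genes Bub1b (−3.29 ± 0.46, limma adjusted p = 0.0067) and Mad2l1 (−2.70 ± 0.39), whose products hold Cdc20 inactive, and Trip13 (−2.16 ± 0.21), an ATPase that takes the checkpoint complex apart. Fbxo43 and Usp44 did not pass the signal filter. Without the array TGF-beta1 replicate 1, Mad2l1 had an adjusted p of 0.0507. With the mean of its probe sets Bub1b had −2.14 (adjusted p = 0.0137).

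Of 32 other substrates of the complex 31 were measured (Ccnb1 was not analysed here) and 23 fell, beside 1.80% of all genes, with a median of −2.58. They included the spindle proteins Tpx2 (−3.57 ± 0.31), Prc1 (−3.58 ± 0.28) and Tacc3 (−2.90 ± 0.28) and the checkpoint kinase Ttk (−2.44 ± 0.22), each at a limma adjusted p of 0.00247. With the mean of its probe sets Tpx2 had −1.53 (adjusted p = 0.0203). Of 8 cohesin genes, whose ring Espl1 opens, 0 passed by limma, with a median of −0.21, and Smc1a and Pds5a had the largest differences (−0.61 ± 0.22 and 0.36 ± 0.18, adjusted p = 0.331 and 0.542). Of 9 genes of the related SCF ligase and its target Wee1, 2 fell: Wee1 (−2.11 ± 0.22, limma adjusted p = 0.00247), the kinase that restrains mitotic entry, and Cks1b (−1.05 ± 0.16, adjusted p = 0.00999), a cofactor of SCF and of cyclin-dependent kinases. The call of Cks1b was lost without Ethanol and TGF-beta1 replicate 1, TGF-beta1 replicate 1 or TGF-beta1 replicate 2, at adjusted p of 0.0638, 0.0676 and 0.0591. Skp1 and Cul1, core subunits of SCF, had −0.024 and −0.0092. The lists were drawn up with earlier results of these arrays known. Over all 5 lists 28 of 70 genes tested fell and 0 rose, beside 1.80% and 0.183% of all genes, and without both ethanol arrays labelled replicate 1 limma called 0, as it did 0.00% of all genes, with 36 of 70 and 10.4% of all genes at an unadjusted p under 0.05.

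**Figure D4:**
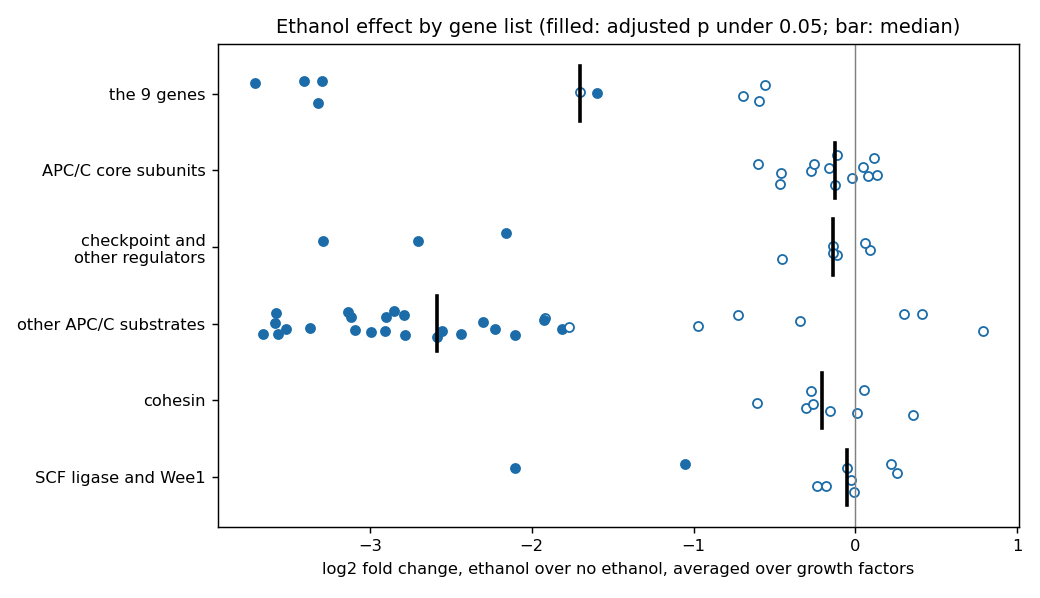
Log2 fold change of ethanol over no ethanol in the average for each tested gene of the 9 described and of 5 lists around them, filled where the adjusted p was under 0.05, with a bar at each median. Substrates reach −3.66 and checkpoint genes −3.29, while no core subunit lies below −0.60.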

How the data were processed

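The deposited table held a MAS5 signal intensity on a linear scale for each probe set, made by the authors with MAS5 and GCOS, per the submitters' processing notes; versions and further settings are not given in the sources used here. Each array had a 2% trimmed mean of 500, and the table held no detection calls. The number of arrays limits the precision. Probe sets were named from GEO's platform annotation and positions from RefSeq (GRCm38.p6). Values became log2(signal + 23.66), where the constant is the 25th percentile over the whole table. For a gene with several probe sets the one with the highest mean was used, and 10916 of 18193 genes were tested, those whose mean reached 6.402 (40th percentile). The model of 4 group means over all 8 arrays was fitted with limma 3.58.1 in R 4.3.3 with an eBayes trend (4 residual and 4.929 prior degrees of freedom). P values are two-sided and Benjamini-Hochberg adjusted over all genes within each comparison, at a threshold of 0.05. The script was tested on simulated data. The genes, lists and alternatives were chosen with earlier results of these data known, and the exact permutation tests on partner genes were added after their values were seen. Named were the 9 genes, up to 4 genes per list with the smallest adjusted p in the ethanol average (or, with fewer than 2 past the threshold, the 2 largest differences), and the 5 profiles nearest to Cdc20 and to Fzr1. Skp1 and Cul1 were named outside that rule after their values were seen.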

Additional observations from a re-analysis of the deposited data

How the results depend on the processing

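With 2 arrays per group, single arrays decide several counts. In the ethanol average 5 of 9 genes fell, and with 1 array left out the count ran from 4 to 6. It was 0 without both ethanol arrays labelled replicate 1, a fit with 2 residual degrees of freedom, and 3 when every probe set of a gene had to pass. Those 3, Ube2c, Fbxo5 and Cdca3, each had only 1 tested probe set, so agreement between probe sets could not be checked for them. Cdc20 and Pttg1, with several tested, lost the call. Within FGF2 the count of 0 became 3 without FGF2 replicate 2 and ran from 0 to 3 with 1 array left out. Within TGF-beta1 it ran from 0 to 5 with 1 array left out, was 3 without the eBayes trend, 0 with the replicate number as a block, 0 without both ethanol arrays labelled replicate 1, and 2 when every probe set had to pass. Those 2, Ube2c and Cdca3, again had only 1 tested probe set each. The replicate numbers were not taken as pairs: deviations of same-numbered arrays correlated at −0.0835 between the FGF2 groups, 0.0457 between the TGF-beta1 groups, 0.466 between FGF2 and TGF-beta1 and −0.438 between the ethanol groups. Without ethanol the median signal followed the number, at 50.6 and 80.7 in TGF-beta1 and 50.7 and 86.5 in FGF2. With the replicate block the other counts of the 9 genes were as without it: 5 in the average, and 0 within FGF2, in the interaction and between growth factors. Over all genes the 217 calls of the ethanol average became 119 with the signal filter at the 60th percentile, 128 without Ethanol and TGF-beta1 replicate 1, 101 without TGF-beta1 replicate 1 and 0 without both ethanol arrays labelled replicate 1. The 28 other pathway genes became 17 with the signal filter at the 60th percentile, which tests fewer genes, 0 without both ethanol arrays labelled replicate 1, and 22 to 30 with 1 array left out. The counts of 0 in the interaction and between growth factors held in each alternative run. Signs turned within FGF2 for Ube2s (0.085 without Ethanol and FGF2 replicate 2, 0.17 without FGF2 replicate 1, range −0.51 to 0.17 with 1 array left out) and Anapc11 (0.14 with the mean of probe sets, 0.0053 without FGF2 replicate 1, range −0.39 to 0.0053), none past the test before or after. Between growth factors Ube2c turned to −0.020 without FGF2 replicate 2 (range to 1.98). In the interaction, without FGF2 replicate 2, the values of Cdc20, Ube2c, Espl1, Fbxo5 and Cdca3 became 0.35, 0.32, 0.18, 0.11 and 0.11, at the other end of ranges that reached −1.72, −1.68, −2.16, −0.65 and −2.01 without FGF2 replicate 1. Without both ethanol arrays labelled replicate 1, those of Cdc20 and Pttg1 became 0.15 and 0.16. In the interaction Fzr1 had −0.051 with quantile normalization and −0.06, −0.085 and −0.045 without Ethanol and FGF2 replicate 2, FGF2 replicate 1 and Ethanol and TGF-beta1 replicate 1, and up to 0.20 with 1 array left out. The cause was not tested for any of these changes. Low signals limit Espl1 most, as the table has no detection calls.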
